A study of Mus musculus with 32 samples.

Results

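The naive pluripotency factors are 10 genes, Zfp42, Prdm14, Klf2, Klf4, Klf5, Esrrb, Tfcp2l1, Nanog, Dppa3 and Tcl1, that were taken by symbol from the 24028 gene symbols of the RNA-seq tables, and their RNA levels were compared between WT mESCs and the library labelled Eed-/-. mESCs are cultured pluripotent cells derived from early mouse embryos, and EED is the subunit of Polycomb repressive complex 2 (PRC2) that binds trimethylated H3K27, the histone mark this complex writes. The series addressed how Polycomb relates to DNA methylation in DNA methylation valleys (DMVs), which are long stretches of DNA with little methylation around developmental genes, and 2 of its 32 samples are RNA-seq libraries, 1 per genotype. The labels give the TT2 line for both libraries, and both were grown with serum and leukemia inhibitory factor (LIF) on gelatinized plates. In other assays the strain label of Eed-/- samples is not TT2 but carries the name of a mutant Eed allele, and the labels of the RNA-seq library do not say which mutation it has.

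Naive pluripotency is the state of the epiblast before implantation, and mESCs in LIF hold a related state through transcription factors that bind the regulatory DNA of one another's genes. LIF acts through STAT3 on several of them, and most are shut down when cells move on to the primed state of the implanted epiblast. In serum with LIF, mESC cultures are mixed, and Nanog, Zfp42, Prdm14 and Dppa3 are known to vary from cell to cell, so in these bulk libraries a larger share of expressing cells and more RNA per cell cannot be told apart.

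The values are FPKM, that is, fragment numbers scaled to transcript length and library size, so levels of different genes can be set beside each other. Both libraries were shallow, with about 7240000 fragments for WT and 6450000 for the library labelled Eed-/-, as recovered from the steps between low values. Changes are given as the library labelled Eed-/- minus WT in log2(quantile-normalized FPKM + 1), a scale that understates changes of low genes. Each change is followed by a 95% interval from approximate fragment numbers, which covers counting error only. With 1 library per genotype the spread between cultures is unknown and no test was made. Eed itself had a level, as deposited FPKM, of 63.0 in the WT library and 70.9 in that labelled Eed-/-, so its RNA was not lower there. This value does not check the label for a mutation that leaves the transcript in place. The paper reports a check of the loss of Eed in its Eed-/- mESCs through trimethylated H3K27, by western blot and ChIP-seq. The ChIP-seq samples were not analysed here.

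Of the 10 factors, 9 were higher and 1 was lower in the library labelled Eed-/-, where 50.9% of all genes used were higher, and their median change was 0.72, against 0.01 for the 14835 genes used. Prdm14 and Zfp42 were at least 2-fold higher, which 3.8% of all genes used were. Dppa3 was at least 2-fold lower, which 3.98% of all genes used were. With a threshold of 1.5-fold, 6 factors were higher, with 12.3% of all genes used past it, and 1 was lower, with 12.4% past it. Klf5 was close to this threshold, at 0.594 against 0.585 on the log2 scale, and under it at 0.43 with the FPKM as deposited. All 10 passed the filter on low values, a mean normalized FPKM of at least 0.1. The factors are well expressed genes, and the background was much the same at their level. Of the 4213 genes at or above the mean level of the lowest factor, 12.9 normalized FPKM, 3.18% were at least 2-fold higher, 3.85% were at least 2-fold lower and 11.3% were at least 1.5-fold higher.

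**Figure D1:**
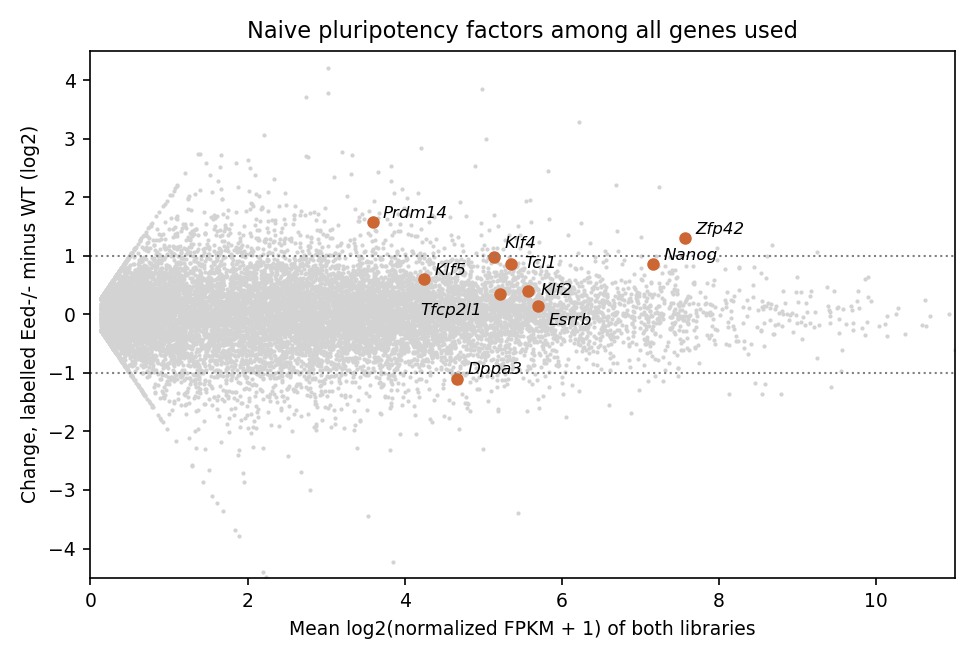
Change between the libraries (log2, vertical) against the mean level of both libraries (log2, horizontal) for the genes used, in grey, and the 10 naive pluripotency factors, in orange, with dotted lines at 2-fold and 70 genes outside the axes not drawn. Prdm14 and Zfp42 lie above the upper line, Dppa3 lies below the lower line, and the other factors lie between 0.13 and 0.99.

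The promoters of 3 factors are shown because they span the range of CpG content among the factors, CpG being the step at which mammalian DNA is mostly methylated, and because Zfp42 and Nanog carry DNA letters that POU5F1 reads. RefSeq sequences on GRCm38.p6 covered 250 bases before to 50 bases after the annotated start, written 5′ to 3′ on the strand of the gene, with every CpG in capitals. Klf4, at chr4:55532426-55532725 on the minus strand, held 40 CpGs in 300 bases, more than 96.1% of 32817 promoters of this length. Zfp42, at chr8:43306960-43307259 on the minus strand, held 11, and the later of 2 Nanog starts, at chr6:122707315-122707614 on the plus strand, held 4, against a median of 7 over all promoters.
Klf4: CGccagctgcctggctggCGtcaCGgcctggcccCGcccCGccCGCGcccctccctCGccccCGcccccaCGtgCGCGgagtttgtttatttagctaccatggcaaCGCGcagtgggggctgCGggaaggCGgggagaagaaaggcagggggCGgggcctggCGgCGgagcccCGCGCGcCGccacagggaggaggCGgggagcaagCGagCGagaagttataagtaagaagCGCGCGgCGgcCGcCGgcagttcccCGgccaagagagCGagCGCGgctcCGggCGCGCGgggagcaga
Zfp42: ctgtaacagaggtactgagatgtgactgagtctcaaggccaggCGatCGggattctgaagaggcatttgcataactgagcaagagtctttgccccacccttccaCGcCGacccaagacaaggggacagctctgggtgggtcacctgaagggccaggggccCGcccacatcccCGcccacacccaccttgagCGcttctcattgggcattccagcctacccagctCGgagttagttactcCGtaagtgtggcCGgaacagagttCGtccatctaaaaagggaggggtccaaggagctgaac
Nanog: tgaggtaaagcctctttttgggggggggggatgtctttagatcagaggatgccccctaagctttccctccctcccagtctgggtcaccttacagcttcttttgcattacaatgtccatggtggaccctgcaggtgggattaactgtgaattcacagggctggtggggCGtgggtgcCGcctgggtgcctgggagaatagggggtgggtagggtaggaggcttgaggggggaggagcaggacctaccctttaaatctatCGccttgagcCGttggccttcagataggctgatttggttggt

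Promoters were matched for 7 of the 10 factors, and Prdm14, Klf5 and Dppa3 were not in the sequence table. The Klf2 promoter held 32 CpGs, Tfcp2l1 held 21, Tcl1 held 11, and both Esrrb starts held 7. Both factors with the most CpGs, Klf4 and Klf2, were higher in the library labelled Eed-/-, by 0.99 and 0.40, and Nanog with the fewest was higher by 0.86. The octamer ATGCAAA of POU5F1, searched on both strands, was in the promoters of Zfp42 185 bases before the start and of Nanog 75 and 151 bases before its 2 starts, and in 4.63% of all promoters. The SOX2 letters CATTGT were in Nanog and Esrrb promoters and in 12.6% of all promoters. The KLF letters CCNCACCC were in Zfp42, with 2 matches, Esrrb and Tcl1, and in 16.6% of all promoters, and the ESRRB letters AAGGTCA were in none of the factors' promoters and in 4.72% of all. The Nanog starts lie close together, so their windows share most of their bases. A match of letters is not a measured site.

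Zfp42 encodes REX1, a zinc finger protein whose expression is widely used to mark the naive state. It is on chromosome 8 of mm9 from 44380422 to 44392363, on the minus strand, and all gene positions that follow are on this build. Its deposited FPKM was 131 in WT, with a counting interval of 125 to 138, and 272 in the library labelled Eed-/-, with an interval of 262 to 282. It was the highest of the factors in both libraries, and the intervals were far apart. The change was 1.30 (95% counting interval 1.21 to 1.39), 2.48-fold on normalized FPKM, from about 1537 and 2845 fragments, the most fragments of any factor in the library labelled Eed-/-. Zfp42 has a near-identical copy elsewhere in mm9, on chromosome 15 from 93509043 to 93510464, that covers 99.1% of its transcript at 98.1% identity. Reads of the gene and the copy may not be told apart, and the Zfp42 value is uncertain to that extent.

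Prdm14 encodes a PR domain zinc finger protein that restrains FGF signalling and the de novo DNA methyltransferases in mESCs and is needed for germ cells. The gene is on chromosome 1 of mm9 from 13103538 to 13117244, on the minus strand. Its deposited FPKM was 6.36 (5.23 to 7.67) in the WT library and 18.5 (16.4 to 20.8) in that labelled Eed-/-. It was the lowest factor in WT, and it had the largest change among the factors, 1.57 (1.28 to 1.86), or 3.30-fold on normalized FPKM. The change rests on about 110 fragments in the WT library and 284 in the other.

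Klf2, Klf4 and Klf5 encode zinc finger factors of the Krüppel-like family that bind closely similar DNA and can partly replace one another in self-renewal. Klf4, a reprogramming factor and a target of STAT3, is on chromosome 4 from 55540013 to 55545347, on the minus strand. Its deposited FPKM was 25.5 (19.6 to 32.6) in the WT library and 44.4 (36.1 to 54.1) in that labelled Eed-/-. Its change of 0.99 (0.53 to 1.45) lay just under the 2-fold threshold on this scale, while the ratio of normalized FPKM was 2.02. The length of the transcript matters for its precision, since the shortest coding transcript gave about 63 and 98 fragments and the longest gave 528 and 819, with an interval of 0.83 to 1.14. Klf5, which also acts in the trophectoderm and inner cell mass, is on chromosome 14 from 99697910 to 99712624, on the plus strand. Its deposited FPKM was 15.2 in the WT library and 20.8 in the other, a change of 0.59 (0.31 to 0.88). Klf2, on chromosome 8 from 74842932 to 74845555 on the plus strand, had a level, as deposited FPKM, of 43.1 in the WT library and 49.5 in the other. Its change was 0.40 (0.23 to 0.58), the lowest of the 3, and it was 0.19 with the FPKM as deposited and 0.79 relative to the median of its chromosome. All 3 Klf factors were higher in the library labelled Eed-/-, none past 2-fold on this scale. Klf2 was 1.69 times the level of Klf4 in WT and 1.11 times in the other library, by deposited FPKM, and their intervals overlapped only in the latter. Klf5 was the lowest of the 3 in both.

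**Figure D2:**
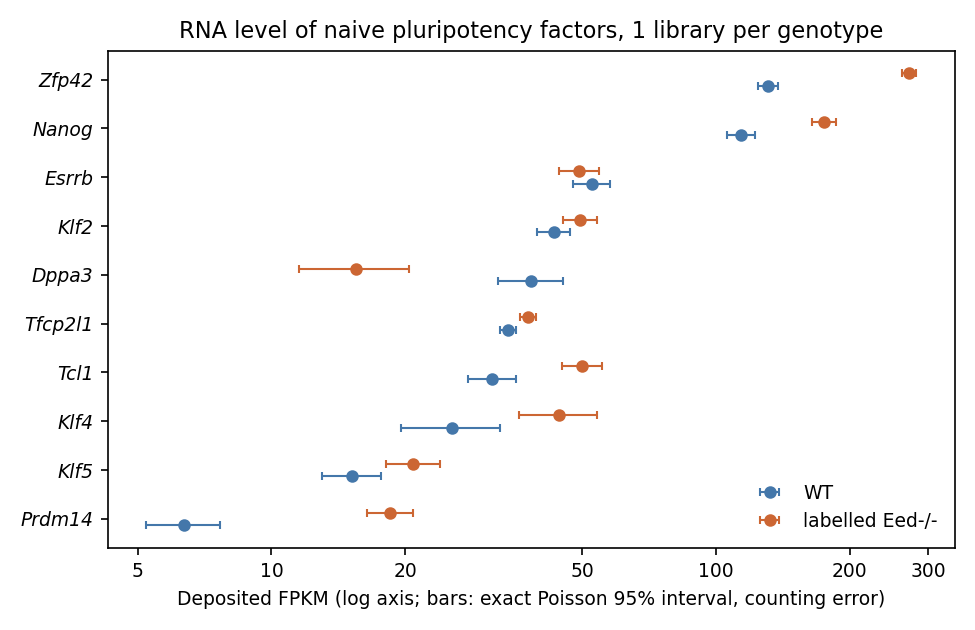
Deposited FPKM (log axis) of the 10 factors in the WT library and in the library labelled Eed-/-, with bars for the 95% counting interval of each value. Dppa3 is lower in the library labelled Eed-/-, with 38.4 against 15.5, Esrrb is nearly level with 52.6 and 49.2, and Zfp42 and Nanog are the highest in both.

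Nanog encodes the homeodomain factor that sustains self-renewal when LIF is limiting. It is on chromosome 6 from 122657507 to 122664651, on the plus strand, and its deposited FPKM was 114 (106 to 123) in the WT library and 176 (165 to 187) in that labelled Eed-/-. The change was 0.86 (0.73 to 1.00), from about 741 and 1017 fragments. A match elsewhere in mm9 covered 59.6% of its transcript at 97.5% identity, so part of its reads may not be told apart. Esrrb, an orphan nuclear receptor and a target of Nanog, and Tfcp2l1, a grainyhead-related factor downstream of LIF and STAT3, were nearer to their WT levels. Esrrb, on chromosome 12 from 87702067 to 87862578 on the plus strand, had a level, as deposited FPKM, of 52.6 in the WT library and 49.2 in the other. Its change was 0.13 (-0.06 to 0.33) after normalization and -0.09 with the FPKM as deposited, so its direction depended on the scaling. The all-gene median was likewise 0.01 after normalization and -0.09 as deposited, and Esrrb lay close to it in both cases. Its interval with the longest transcript was 0.03 to 0.24. Tfcp2l1, on chromosome 1 from 120524522 to 120581744 on the plus strand, had a level, as deposited FPKM, of 34.0 in the WT library and 37.8 in the other. Its change of 0.35 (0.26 to 0.43) rests on about 2240 and 2219 fragments, but it was 0.15 with the FPKM as deposited and 0.64 relative to the median of its chromosome, both outside the counting interval.

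Tcl1 encodes a coactivator of the kinase AKT, and it lies on chromosome 12 from 106454967 to 106460947, on the minus strand. Its deposited FPKM was 31.4 (27.7 to 35.5) in the WT library and 49.97 (44.9 to 55.4) in that labelled Eed-/-. The change was 0.86 (0.63 to 1.09), as large as that of Nanog. The other genes of the TCL1 family were at the floor of the data. Of 5, 2 passed the filter, none was at 2-fold, and the highest deposited FPKM among them was 0.323 in the WT library and 0.238 in the other.

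Dppa3, also called Stella or PGC7, encodes a protein that shields DNA from loss of methylation in the early embryo and opposes UHRF1. It was the factor that went the other way. The gene is on chromosome 6 from 122576428 to 122580290, on the plus strand, and its deposited FPKM was 38.4 (32.4 to 45.3) in the WT library and 15.5 (11.5 to 20.4) in that labelled Eed-/-. The change was -1.10 (-1.56 to -0.65), from about 142 and 51 fragments, so the interval reached from more than to less than 2-fold. Dppa3 was among the middle factors in WT and the lowest in the library labelled Eed-/-. A near-identical copy on chromosome X of mm9, from 35039886 to 35040704, covers 98.1% of its transcript at 97.8% identity, so its value is uncertain in the same way as that of Zfp42.

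Dppa3 and Nanog are neighbours, 77.2 kb apart on chromosome 6 and transcribed in the same direction. The level of Nanog relative to Dppa3 was 2.90 in the WT library and 11.7 in that labelled Eed-/-, on normalized FPKM. Other genes near them lay between these opposite changes. Gdf3, which codes for a TGF-beta family ligand and lies between Apobec1 and Dppa3, had a change of -0.04, and Slc2a3, a glucose transporter gene beside Nanog, of 0.04. Apobec1, a cytidine deaminase gene at low level, had a change of -0.69. These neighbours were chosen for naming after their values were seen. Within 500 kb, the median change was -0.02 over 11 neighbours of Nanog and 0.04 over 11 neighbours of Dppa3, each counting the other factor. All 11 neighbours of Dppa3 lay above it and all 11 neighbours of Nanog lay below it, which is close to the background, since 3.0% of all genes used lie below Dppa3 and 94.6% below Nanog.

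**Figure D3:**
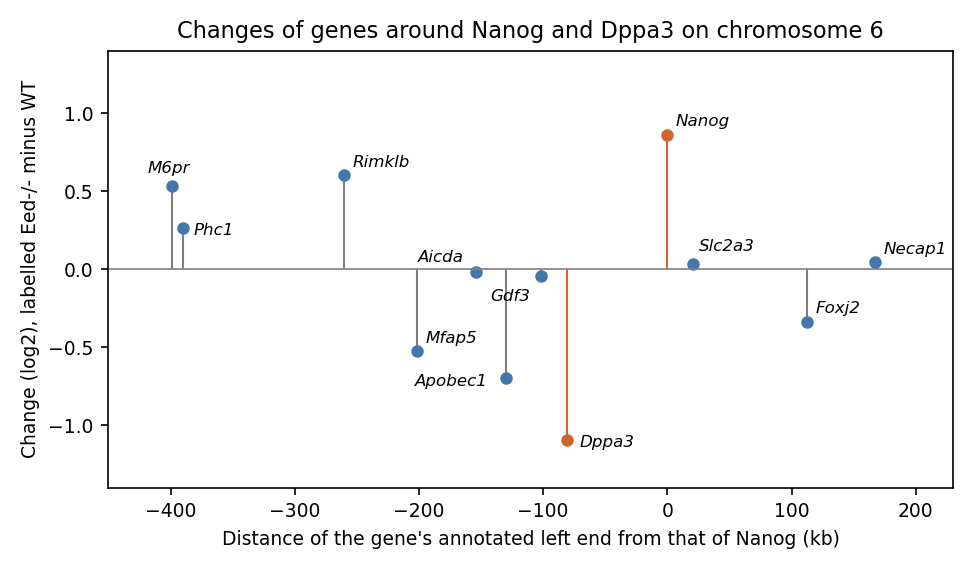
Change between the libraries (log2, vertical) of the genes used near Dppa3 and Nanog on chromosome 6, against the distance in kb of each gene's annotated left end from that of Nanog. Nanog at 0.86 is the highest and Dppa3 at -1.10 the lowest of the genes drawn, with Gdf3 and Slc2a3 near 0.

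The other factors were also set beside the genes around them, because genes of chromosomes 1 and 8, which hold 4 of the factors, were lower as a whole in the library labelled Eed-/-. The chromosome median was -0.29 for chromosome 1 and -0.39 for chromosome 8, while it was between -0.07 and 0.02 for the chromosomes of the other 6 factors. Chromosome X, which holds the near-identical copy of Dppa3 but none of the factors, had a median of 0.46 over 538 genes. The median of chromosome Y was 1.77 over 6 genes. The 4 factors on chromosomes 1 and 8 were higher all the same, with a median change of 0.85, against 0.72 for the other 6. Measured from their chromosome's median, Prdm14 was at 1.87, Zfp42 at 1.69, Klf2 at 0.79 and Tfcp2l1 at 0.64. In this view, chosen after seeing the data, 9 of the 10 factors lay above their chromosome's median, with Dppa3 the exception, and the same counts of 2 and 1 passed 2-fold. Over all genes with a position, 3.53% were at least 2-fold above and 3.48% at least 2-fold below the median of their chromosome.

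Close neighbours were read against the share of all genes used that lie below each factor. Near Tfcp2l1, which 76.6% of all genes used lie below, all 5 genes within 500 kb were below it, with a median change of -0.65. Near Klf2, with 79.8% of all genes below it, 18 of 19 neighbours were below it, with a median of -0.40. Near Esrrb, with 61.2% of all genes below it, 9 of 10 neighbours were. For Prdm14, Zfp42, Klf4, Tcl1 and Klf5 this share was 99.0%, 98.1%, 96.1%, 94.5% and 88.0%. All of their 5, 2, 2, 12 and 4 neighbours were below them, which is not a result about these places. The counts near Tfcp2l1, Klf2 and Esrrb were not tested against their shares and are not read as results about places either. Tfcp2l1 and Klf2 lie on chromosomes 1 and 8, whose medians of -0.29 and -0.39 were below that of all genes used.

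**Figure D4:**
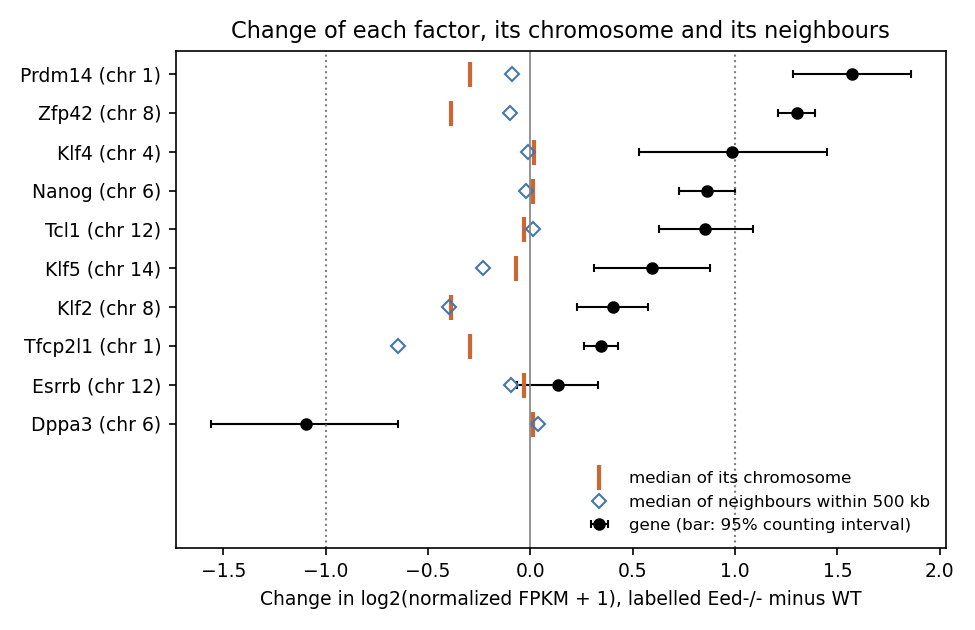
Change of each factor (black, with its 95% counting interval), the median change of its chromosome (orange bar) and the median of the genes used within 500 kb of it (blue diamond), all as log2, labelled Eed-/- minus WT. The medians of the chromosomes of Prdm14 and Zfp42 lie at -0.29 and -0.39 while these factors lie at 1.57 and 1.30, and the interval of Esrrb crosses 0.

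The order of the levels was partly kept. By deposited FPKM, Zfp42 was followed by Nanog in both libraries, and neighbouring intervals did not overlap there. In WT came Esrrb, then Klf2, Dppa3, Tfcp2l1, Tcl1 and Klf4, in which each overlapped with the next, then Klf5 and Prdm14, each apart from the next. In the library labelled Eed-/- came Tcl1, Klf2, Esrrb, Klf4 and Tfcp2l1, in which each overlapped with the next, and then Klf5, Prdm14 and Dppa3, which overlapped likewise. The distance from the highest to the lowest factor was about the same, 4.11 in the WT library and 4.10 in the other on the log2 scale. Summed over the 10 factors, normalized FPKM was 455 in the WT library and 797 in that labelled Eed-/-, a ratio of 1.75. Zfp42 and Nanog carried most of this, and without them the ratio was 1.34.

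In the study's supplementary list of mESC DMV genes, 7 of the factors appear, Zfp42, Prdm14, Klf2, Klf4, Klf5, Dppa3 and Tcl1, while Esrrb, Tfcp2l1 and Nanog do not. The share of all genes on this list, and their change, were not computed, so the count is not read as a result about the factors. The median change was 0.86 for the 7 and 0.35 for the 3, and this difference was not tested. Both the highest change, of Prdm14, and the lowest, of Dppa3, were among the 7, so the values of the DMV factors spread on both sides of the 3 others.

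Other genes of the pluripotency network did not show a median of this size. Of 16 other genes of the naive state, 2 were at least 2-fold higher and 1 lower, and their median change was 0.01, or -0.18 with the FPKM as deposited. Tbx3, a T-box factor of LIF self-renewal, was at 6.79 FPKM in the WT library and 29.5 in that labelled Eed-/-, a change of 2.14, and Jam2, an adhesion molecule, had a change of 1.35. Fgfbp1, which carries FGF ligands, had 9.73 and 1.67 FPKM, a change of -1.91, and Zfp57, a guardian of imprinted methylation, had a change of 0.83. Of 12 core pluripotency genes, which are shared by the naive and primed states, only Foxd3, a forkhead factor, was at least 2-fold higher, by 1.26, none was 2-fold lower, and the median was -0.05. Sall1 had a change of -0.49 and Utf1 of -0.38.

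LIF is the signal that feeds several of the factors, and the genes of its pathway had a median change of 0.10 over 14 genes, or -0.10 with the FPKM as deposited. None was 2-fold higher and 1 was 2-fold lower. That gene was Pim1, a kinase gene induced by STAT3, with 50.5 FPKM in the WT library and 14.7 in that labelled Eed-/-, a change of -1.54. Junb, an AP-1 subunit also induced by LIF, had a change of -0.73, Lif of -0.63 and the gene of the receptor-bound kinase JAK1, Jak1, of 0.65. Of 12 repressors and exit factors used, which restrain the naive genes or take cells out of the state, Rbpj, the Notch effector, was at least 2-fold higher, by 1.19, none was 2-fold lower, and the median was -0.00, or -0.19 as deposited. Etv5 had a change of 0.63, Zfp706 of 0.62 and Zfp281 of -0.39.

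The primed and formative genes, which mark the epiblast after the naive state, were mixed. Of 17 used, 3 were at least 2-fold higher and 2 lower, with a median of 0.26, or 0.067 with the FPKM as deposited. Otx2, a homeobox factor of the formative state, was at 1.79 FPKM in the WT library and 9.90 in that labelled Eed-/-, a change of 2.07. Lefty2, an inhibitor of NODAL, had a change of 1.95, Zic2 of 1.85, and Etv4, a target of FGF and ERK signalling, of -1.65. The other gene at least 2-fold lower was Dusp6, an ERK phosphatase gene outside the naming rule, at -1.32. Fgf5, the usual primed marker, was listed at 0 in WT and at 0.133 FPKM in the other library, under the filter.

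Markers of other cells were checked in the same libraries, and their part in the values of the factors was not tested. Of 13 primitive endoderm markers used, 4 were at least 2-fold higher and none lower, with a median of 0.54 and summed FPKM of 129 in the WT library and 178 in that labelled Eed-/-. The 4 were the basement membrane genes Lama1 at 2.06, Col4a1 at 1.76, Nid1 at 1.41 and Col4a2 at 1.22. The defining factors were low in both, with Gata4 at 0.431 and 1.35 FPKM, Gata6 at 0.184 and 0.514 and Sox17 at 0 and 0.449. Of the 13, 11 were higher and 2, outside the naming rule, were lower, the factor Hnf4a at -0.56 and the basement membrane gene Lamb1 at -0.06. Hnf4a had 0.530 FPKM in the WT library and 0.0371 in the other, and Foxa2, under the filter, had 0.0731 and 0. Of 11 trophoblast markers used, 1 was at least 2-fold higher and 2 lower, with a median of -0.52 and summed FPKM of 66.3 and 26.5. Tfap2c had a change of -1.85, Krt18 of -1.06, Eomes of 1.03 and Krt7 of -0.83. Tfap2c was the highest of these markers in both libraries, with 39.8 and 9.21 FPKM, so it weighs most in the sums. The defining factor Cdx2 was at 0.562 and 0.0788 FPKM, and Elf5 was at 0 in both. Of 7 feeder fibroblast markers used, 2 were at least 2-fold higher, Vim at 2.44 and Thy1 at 2.10, and none lower, with a median of 0.60, summed FPKM of 84.6 and 163, and Dcn at 0 in both libraries. The sums rest mostly on Vim, with 24.9 FPKM in the WT library and 118 in the other, and Fn1, with 55.9 and 33.5. Fbn1 had a change of 0.73 and Col5a1 of 0.60, and the other 3 used, outside the naming rule, were lower, with Fn1 at -0.52, Col1a1 at -0.36 and Pdgfrb at -0.13. Of 15 genes of the 2-cell-like state found in the tables, 12 were at 0 in both, including Dux, and 1 passed the filter, Tcstv1 with a change of -0.27. Their summed FPKM was 0.462 in the WT library and 0 in the other.

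**Figure D5:**
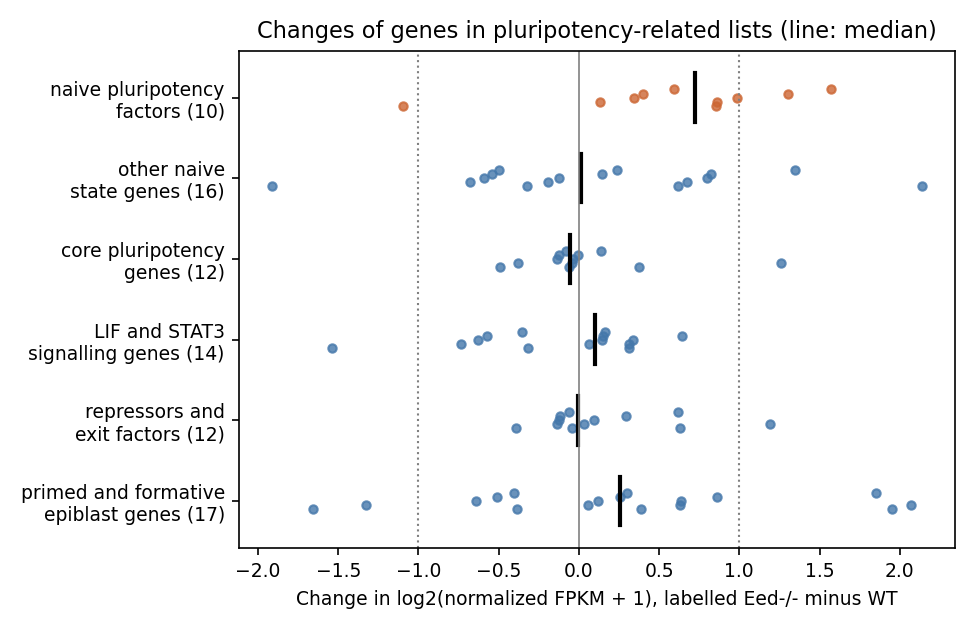
Change between the libraries (log2) of each gene used in the lists of pluripotency and LIF signalling genes, with 1 point per gene and a bar at the median of each list. The naive pluripotency factors have a median of 0.72, the other naive genes 0.01 and the core pluripotency genes -0.05.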

How the data were processed

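RNA-seq libraries of WT and Eed-/- mESCs, 1 per genotype, were made strand-specifically from total RNA depleted of ribosomal RNA. The authors mapped reads to mm9 and deposited FPKM per gene symbol, with no read counts. The submitters' processing notes name TopHat2 2.0.11, Bowtie2 2.2.2 and Cufflinks 2.2.1 without roles, and the paper's methods give another TopHat version. The annotation and Cufflinks options are not given in the sources used here, nor is how reads with several matches were treated. The 4C-seq, ChIP-seq and MethylC-seq samples were not analysed here.

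Each table held 24525 values for 24028 symbols, and the values of each of 268 repeated symbols were added up. Libraries were quantile-normalized, after the study's methods, and changes were differences in log2(FPKM + 1). The filter on low values was a mean of 0.1 normalized FPKM over both libraries, and called means a change of at least 2-fold on this scale. Depth was recovered from low FPKM values of 5391 genes whose only annotated transcript is 1000 bp or longer, after subtracting 180 bp from the length, and 80.6% of 832 low values in WT and 80.5% of 939 in the library labelled Eed-/- lay within 0.1 of a whole fragment. This gave approximate fragment numbers, exact Poisson intervals of levels and exact binomial (Clopper-Pearson) intervals of changes, at 95% and for counting error only, with the shortest coding transcript as length.

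Gene positions were those of GENCODE vM1 (NCBIM37, that is, mm9), with 21835 symbols matched, and Tfcp2l1 is Tcfcp2l1 there. Promoters came from RefSeq on GRCm38.p6. Near-identical copies were found with minimap2 2.31 at a cover of at least 80% and an identity of at least 95%. The computations were tested on simulated data.

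The 10 factors and all lists were chosen with earlier results of these data known. The text names all factors, of each other list at most 4 genes with the largest change among those past the filter, defining markers that were low or at 0, and Eed, and 1 gene selected this way is not reported here. Genes given as outside this rule were chosen after their values were seen. Etv5, Sall4 and Foxa2 are each in 2 lists. Alternatives tried were median-ratio scaling, the FPKM as deposited, quantile normalization without 1203 small non-coding RNA symbols, pseudocounts of 0.1 and 0.01, no filter or a mean FPKM of at least 1, repeated symbols left out or taken once, thresholds of 1.5-fold and 3-fold, the longest transcript for intervals and, chosen after seeing the data, changes relative to the chromosome median. Computations ran in Python 3.11.15 with pandas 2.3.3, numpy 2.4.6 and scipy 1.17.1, and plots in matplotlib 3.10.9.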

Additional observations from a re-analysis of the deposited data

How the results depend on the processing

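Over 10 alternatives for the changes, the direction of 9 factors was that of the values reported, and Esrrb alone changed sign, from -0.09 with the FPKM as deposited to 0.17. Zfp42 ranged from 1.05 to 1.69, Prdm14 from 1.405 to 1.87, Klf4 from 0.78 to 1.02, Nanog from 0.62 to 0.87, Tcl1 from 0.65 to 0.89, Klf5 from 0.43 to 0.66, Klf2 from 0.19 to 0.79, Tfcp2l1 from 0.15 to 0.64 and Dppa3 from -1.26 to -1.10. The count of factors at least 2-fold higher was 3 with a pseudocount of 0.1 or 0.01, where 11.4% and 12.9% of all genes used were, and 2 in every other setting at this threshold, with 3.8% in the setting reported. At 1.5-fold 6 factors were higher in the setting reported, with Klf5 close to the threshold. At 3-fold 0 were higher and 0 were lower, with 1.02% and 0.923% of all genes used past it. Prdm14 fell short of 3-fold on the log2(FPKM + 1) scale, at 1.57. It was 3.30-fold higher on normalized FPKM but 2.91-fold higher on deposited FPKM. The median change of the factors was 0.53 with the FPKM as deposited and 0.82 relative to the chromosome median, a view chosen after seeing the data. No paired analysis was possible because there was 1 library per genotype. At about 51 fragments the counting interval of Dppa3 in the library labelled Eed-/- was wide, and no spread between cultures was measured for any factor.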

Other observations

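Relatives of the factors by family did not share their median. Of 13 other genes of the Krüppel-like family, none was at least 2-fold higher and 1 was lower, with a median change of -0.19, or -0.32 with the FPKM as deposited. Klf12, a repressor, had 2.40 FPKM in the WT library and 0.642 in that labelled Eed-/-, a change of -1.003. Klf15 had a change of 0.84, Klf3 of -0.55 and Klf6 of 0.41. Of the relatives used of Esrrb, Tfcp2l1 and Prdm14, which were 10 genes of the ESRR, TFCP2, GRHL and PRDM families and the PRDM14 partner Cbfa2t2, none was 2-fold higher or lower and the median was -0.17, or -0.31 with the FPKM as deposited. Esrra had a change of 0.68, Grhl1 of -0.63, Tfcp2 of -0.61 and Prdm1 of -0.59.

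Factors with the same change differed in how much data stood behind it. Tcl1 and Nanog both had a change of 0.86, but Tcl1 rests on about 254 and 361 fragments and Nanog on about 741 and 1017. The widest single match of the Nanog transcript elsewhere in mm9 covered 59.6% of it at 97.5% identity, under the cover that counts as a copy. Reads of that part may not be told apart, and the Nanog value is uncertain to that extent.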
